A study of Mus musculus with 24 samples.

Results

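Neutrophils from the livers of nanoparticle-treated mice that also received a blocking antibody labelled anti-GCF were compared, across all genes, with neutrophils from treated mice that received an isotype control antibody. Each group had 3 libraries, so the comparison used 6 of the 24 samples of the series. All animals were NOD.c3c4 mice, a congenic strain known for autoimmune disease of the bile ducts, and mice of both groups were given PDC166-coated nanoparticles by vein, in 10 doses. The antibody was the labelled difference between the groups. GCF is not spelled out in the labels, and neither the dose of antibody nor the age or sex of the mice is given there. The labels do not say whether the 3 libraries of a group came from separate animals, so the spread between libraries may be technical. The p-values rest on that spread within groups, estimated over all 15 libraries of the isotype and antibody groups. Of the 22505 genes in the count table, 16812 passed the filter on low counts and were tested. Levels are given as CPM, the counts of a gene scaled to the size of its library, and differences as log2 fold changes of anti-GCF over isotype. The standard error (SE), where given, was derived from the test statistic.

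Neutrophils are short-lived white blood cells that the bone marrow makes in large numbers. During maturation they fill their granules in order, with the azurophil proteases first, the specific granule proteins next, and the gelatinase granules and secretory vesicles last. Granulocyte colony-stimulating factor (gene Csf3) drives their production and release through its receptor Csf3r, the kinases of the JAK family and the transcription factor STAT3. In the liver, the resident macrophages called Kupffer cells take up ageing neutrophils and bacteria from the blood.

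The isotype libraries held 27.0, 47.5 and 30.2 M counts and the anti-GCF libraries 32.6, 29.5 and 23.6 M. Correlations of log2 CPM ran from 0.965 to 0.984 among the isotype libraries, from 0.981 to 0.987 among the anti-GCF libraries, and from 0.875 to 0.914 between the groups. On the first principal component of all 15 antibody-table libraries, which held 50.0% of the variance, the anti-GCF libraries lay at -125, -126 and -137 and the isotype libraries at 67.7, 31.6 and 34.4. Mitochondrially encoded transcripts took 4.82%, 3.40% and 3.72% of the counts of the anti-GCF libraries and 0.819%, 0.715% and 1.70% of those of the isotype libraries. The part of this difference in the results below was not tested. The library numbers in the labels form 1 unbroken run for isotype and another for anti-GCF, so any step that followed these numbers cannot be told apart from the antibody.

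The anti-GCF group differed from isotype in most of the tested genes. With edgeR's quasi-likelihood test and Benjamini-Hochberg adjustment, 5309 genes rose (31.6% of those tested) and 4414 fell (26.3%), 57.8% in all. Of these, 1476 rose and 1187 fell by at least 2 on the log2 scale. The 3 anti-GCF values lay wholly above the 3 isotype values in 36.9% of tested genes and wholly below them in 29.8%, 66.8% in all. The median log2 fold change over all tested genes was 0.11. The genes that fell took 71.3%, 70.5% and 68.9% of the counts of the isotype libraries and 33.7%, 35.2% and 32.4% of those of the anti-GCF libraries. Genes that rose took 8.85%, 9.19% and 10.7% of the isotype counts and 37.3%, 35.9% and 38.3% of the anti-GCF counts.

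**Figure D1:**
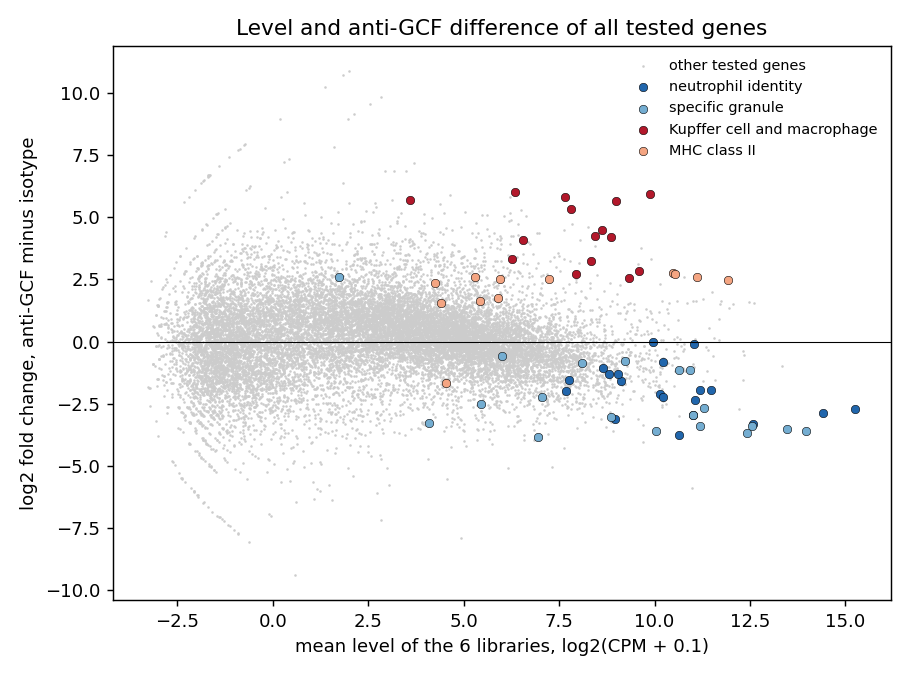
Each point is 1 of 16812 tested genes, with its mean level over the 6 libraries on the x axis, as log2(CPM + 0.1), and its log2 fold change of anti-GCF over isotype on the y axis. The 20 neutrophil identity genes and 19 specific granule genes (blue) lie mostly below 0, and the 15 Kupffer cell and macrophage genes and most of the 12 MHC class II genes (red and orange) lie above it.

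Most of the genes by which neutrophils are recognised fell with anti-GCF. Of 20 neutrophil identity genes, all tested, 18 fell, none rose and 2 were not called, with a median log2 fold change of -1.96, against 26.3% of all tested genes falling and an overall median of 0.11. Their summed level was 133610, 155870 and 156820 CPM in the isotype libraries and 26614, 29712 and 23364 CPM in the anti-GCF libraries. The highest anti-GCF sum was thus far below the lowest isotype sum. All 20 genes were still detected in every anti-GCF library, so the labelled cell type had its markers in both groups. In bulk samples, fewer cells of a type and less RNA per cell cannot be told apart.

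S100a9 and S100a8 encode the paired subunits of calprotectin, a calcium- and metal-binding protein that fills the neutrophil cytoplasm. S100a9 (mm10 chr3:90692632-90695721) stood at 61855, 69134 and 72397 CPM with isotype and 10736, 11865 and 8832 CPM with anti-GCF. It fell 6.47-fold (log2 -2.69 ± 0.33, adjusted p = 1.9e-05). The groups did not overlap, and S100a8 fell with it (log2 -2.86 ± 0.33, adjusted p = 1.4e-05). Ly6g (chr15:75155240-75159126), the surface antigen most used to sort mouse neutrophils, was at 806, 1027 and 851 CPM with isotype and 109.7, 135 and 62.8 CPM with anti-GCF. Every anti-GCF library was well below every isotype library, an 8.73-fold fall (log2 -3.13 ± 0.37, adjusted p = 1.73e-05). Il1r2, the decoy receptor for interleukin-1, measured 2635, 2863 and 3368 CPM with isotype and 145, 241 and 264 CPM with anti-GCF. It was the identity gene with the largest fall (log2 -3.77 ± 0.29, adjusted p = 1.29e-06). Trem1, an activating receptor that amplifies inflammatory signalling, fell by a smaller amount (log2 -2.35 ± 0.22, adjusted p = 3.46e-06).

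A pair of identity genes did not move with the others. Csf3r (chr4:126024550-126044440), the receptor for granulocyte colony-stimulating factor, was at 1676, 2542 and 2301 CPM with isotype and 1962, 1929 and 2202 CPM with anti-GCF. The anti-GCF values lay inside the isotype range, and the log2 difference was -0.10 ± 0.34 (adjusted p = 0.82). Cxcr2 (chr1:74153989-74161246), the chemokine receptor that draws mature neutrophils out of the marrow, gave 823, 1184 and 1028 CPM and 1001, 995 and 967 CPM in the same order. Its groups overlapped too (log2 -0.03 ± 0.24, adjusted p = 0.914). A p that misses the threshold does not show equal levels, and both log2 values turned slightly positive without isotype replicate 2 (0.03 for Csf3r and 0.09 for Cxcr2). Cxcr4, which retains neutrophils in the marrow and marks aged ones, was at 1099, 831 and 838 CPM and 742, 541 and 594 CPM. It fell (log2 -0.56 ± 0.17, adjusted p = 0.0133), and the call was lost without isotype replicate 1, anti-GCF replicate 2 or anti-GCF replicate 3, where the adjusted p was 0.0614, 0.0659 and 0.0512.

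**Figure D2:**
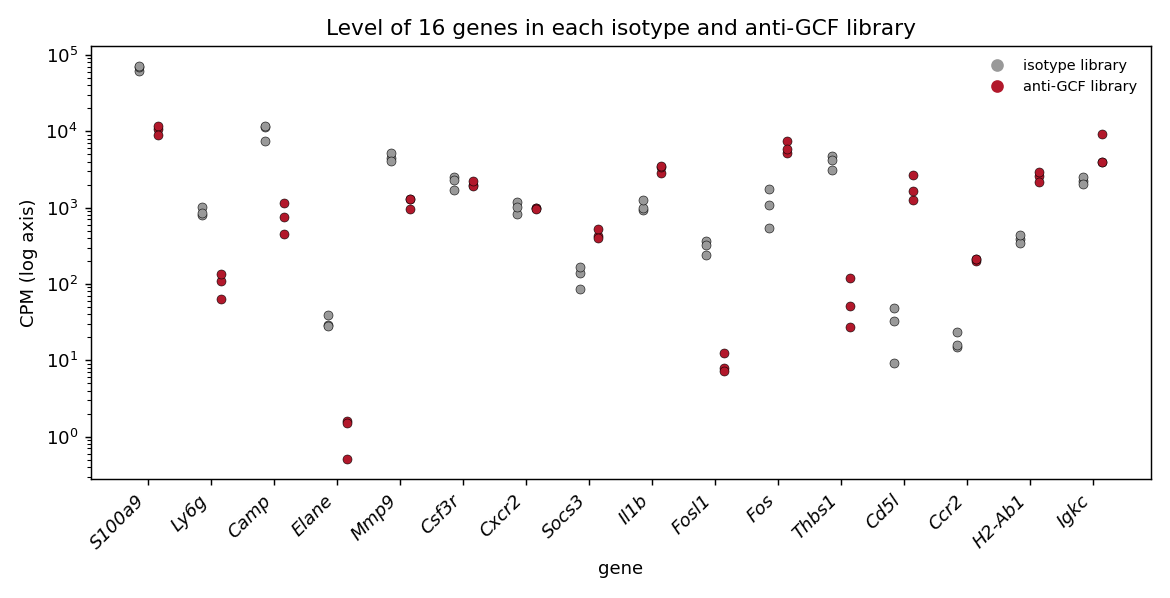
Level of 16 genes in each library (points, CPM on a log axis), with the 3 isotype libraries in grey and the 3 anti-GCF libraries in red. Neutrophil genes such as S100a9, Ly6g, Camp and Elane separate downwards, Csf3r and Cxcr2 overlap, and Cd5l, Ccr2 and H2-Ab1 separate upwards.

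Specific granule genes had a larger median fall than the identity genes. Of 19 tested, 17 fell and 1 rose, where 26.3% of all tested genes fell and 31.6% rose. The 19 genes had a median log2 fold change of -2.96. Their summed level was 80534, 113440 and 86820 CPM with isotype and 11428, 14390 and 7154 CPM with anti-GCF. Within each library, the log2 ratio of the summed specific granule genes, without 1 shared gene, to the summed identity genes was -0.79, -0.52 and -0.91 with isotype and -1.28, -1.11 and -1.77 with anti-GCF. S100a9 alone was a large part of the identity sum in every library, so this ratio and those given below weigh it most. The ratio was lower in all 3 anti-GCF libraries than in any isotype library. With 3 values against 3, the smallest p an exact two-sided permutation test allows is 0.10, so no test was made of it.

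The 4 members with the highest CPM all fell. Ngp, a cathelicidin-like granule protein, was at 26975, 36146 and 26184 CPM with isotype and 2616, 3589.8 and 1274 CPM with anti-GCF (log2 -3.58 ± 0.46, adjusted p = 2.61e-05). Ltf, the iron-binding lactoferrin, measured 18179, 26583 and 18340 CPM with isotype and 2002, 2659 and 908 CPM with anti-GCF (log2 -3.50 ± 0.55, adjusted p = 0.00014). In both genes anti-GCF replicate 3 was the lowest library and the groups lay far apart. Camp, the precursor of the antimicrobial peptide cathelicidin, measured 7526, 11210 and 11805 CPM and 763, 1157 and 446 CPM in the same order (log2 -3.69 ± 0.45, adjusted p = 2e-05). Lcn2, which binds bacterial siderophores, had 9766, 13287 and 9604 CPM and 1127, 1391 and 611 CPM (log2 -3.38 ± 0.42, adjusted p = 2.3e-05). Again replicate 3 was the lowest of the anti-GCF group and no value overlapped. The collagenase Mmp8 (-3.41) and the glycoprotein Olfm4 (-3.59) fell by similar log2 amounts. The exception was Ltbp1, a binding protein of latent TGF-beta, which was at 0.984, 0.986 and 0.745 CPM with isotype and 2.15, 11.1 and 3.37 CPM with anti-GCF and rose (log2 2.61 ± 0.79, adjusted p = 0.0134), a call lost without anti-GCF replicate 2 (adjusted p = 0.0765).

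The promoters of these 4 genes are shown because the genes fell together while Cebpe, the C/EBP factor known to drive specific granule genes, also fell, with its values given among the transcription factors. They are the 250 bases before the start site in RefSeq (GRCm38.p6), printed 5′ to 3′ on the strand of the gene, with capitals marking TTGCNNAA, a C/EBP-like motif, on either strand. The motif is in 9.56% of all 32851 promoters of this length in the table. Counted by gene, where a match in any promoter of the gene was enough, it is in 4 of the 16 specific granule genes that have an entry. The share by promoter and the count by gene are unlike measures.
Ngp, chr9:110419558-110419807, plus strand: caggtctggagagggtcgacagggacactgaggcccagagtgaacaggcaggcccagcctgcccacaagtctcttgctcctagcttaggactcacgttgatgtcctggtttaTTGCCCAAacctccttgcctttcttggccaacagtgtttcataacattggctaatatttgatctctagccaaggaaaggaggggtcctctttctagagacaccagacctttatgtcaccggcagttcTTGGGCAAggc
Ltf, chr9:111019042-111019291, plus strand: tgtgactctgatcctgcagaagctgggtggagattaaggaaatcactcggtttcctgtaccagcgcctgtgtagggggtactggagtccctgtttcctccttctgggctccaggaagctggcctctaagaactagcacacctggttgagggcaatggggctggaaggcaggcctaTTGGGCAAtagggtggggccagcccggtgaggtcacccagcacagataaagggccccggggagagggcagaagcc
Lcn2, chr2:32387740-32387989, minus strand: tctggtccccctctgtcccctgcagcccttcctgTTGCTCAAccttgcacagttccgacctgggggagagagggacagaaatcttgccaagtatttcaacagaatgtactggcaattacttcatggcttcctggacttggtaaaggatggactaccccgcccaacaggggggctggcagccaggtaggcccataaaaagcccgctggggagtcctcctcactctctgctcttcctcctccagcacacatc
Camp, chr9:109849457-109849706, minus strand: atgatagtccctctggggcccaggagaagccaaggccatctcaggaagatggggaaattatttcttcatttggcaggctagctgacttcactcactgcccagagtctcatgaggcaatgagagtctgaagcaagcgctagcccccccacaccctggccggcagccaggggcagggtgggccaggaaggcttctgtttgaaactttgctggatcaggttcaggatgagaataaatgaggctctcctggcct
Ngp held 2 matches, Ltf 1, Lcn2 1 and Camp none in this window. A match is a description of the letters and says nothing of binding.

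Azurophil granule genes divided by kind. Of 13 tested, 7 fell and 5 rose, with a median of -1.56, where 26.3% of all tested genes fell and 31.6% rose. Elane, neutrophil elastase, was at 38.9, 28.9 and 28.4 CPM with isotype and 1.62, 1.49 and 0.505 CPM with anti-GCF (log2 -4.71 ± 0.69, adjusted p = 0.00014). Mpo, myeloperoxidase, gave 71.4, 66.7 and 53 CPM and 4.13, 4.61 and 1.55 CPM (log2 -4.20 ± 0.72, adjusted p = 0.000389). Both were low in all 3 anti-GCF libraries, and Ctsg (-3.66) and Ms4a3 (-3.37), also made at the promyelocyte stage, fell as well. The members that rose were lysosomal enzymes that many phagocytes share, among them Ctsc (2.67), Gusb (1.96) and Hexa (0.75). Of the 12 myeloid progenitor genes, 8 fell and 2 rose. Those that rose were the stem cell and endothelial antigen Cd34 (3.31) and the dendritic cell growth factor receptor Flt3 (3.41).

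Gelatinase granule and secretory vesicle genes fell in 11 of 17 tested cases and rose in 3, with a median of -1.53. Among all tested genes 26.3% fell and 31.6% rose. Mmp9, gelatinase B, was at 4431, 5199 and 4033 CPM with isotype and 1284, 1289 and 970.3 CPM with anti-GCF (log2 -1.95 ± 0.29, adjusted p = 8.25e-05). Retnlg, a resistin-like protein of mouse neutrophils, was at 11233, 11366 and 10476 CPM and 1022, 1422 and 887 CPM and fell more (log2 -3.31 ± 0.35, adjusted p = 6.54e-06). No value overlapped in either gene. Padi4, the enzyme that citrullinates histones in neutrophil extracellular traps, fell as well (-2.64), as did the integrin subunit Itgam (-1.31). Without the shared genes, the log2 ratio of this list to the identity list was -3.38, -3.30 and -3.46 with isotype and -2.98, -2.73 and -2.83 with anti-GCF. Relative to the identity genes, the 13 genes left of this list were thus higher in all 3 anti-GCF libraries, whereas the specific granule ratio was lower. The shared genes left out were Mmp9, Retnlg, Itgam and Fpr1, which all fell. The summed full list with anti-GCF was 0.207 times that with isotype, against 0.179 times for the identity list. The identity sum itself fell, and the part of other cell types in this ratio was not tested.

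**Figure D3:**
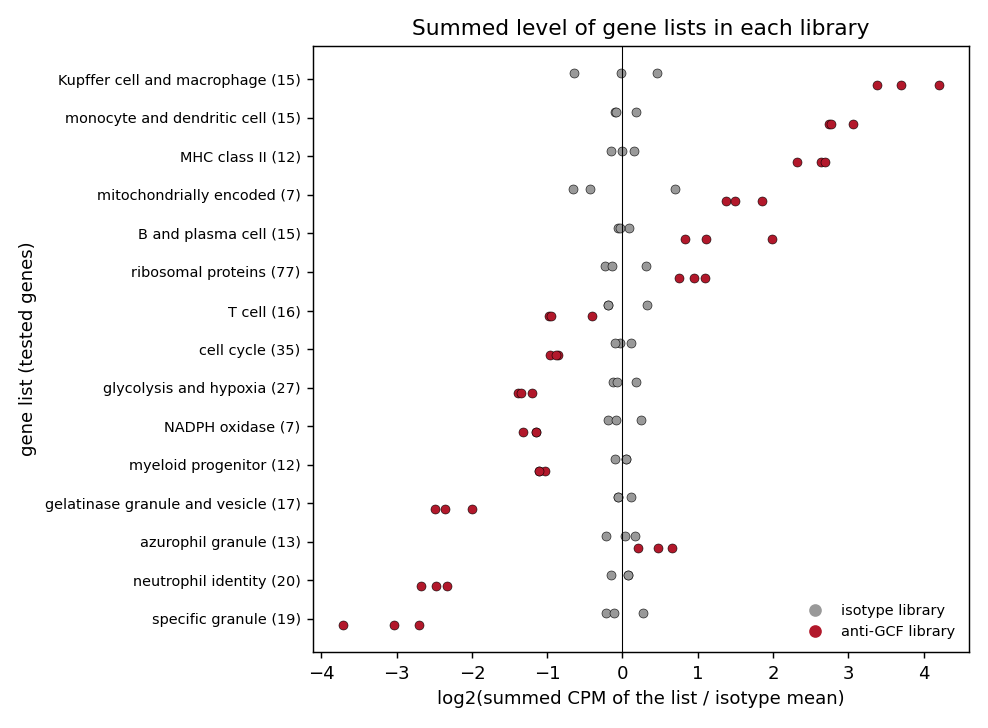
Summed CPM of 15 gene lists in each library, as log2 of the ratio to the isotype mean, with isotype libraries in grey, anti-GCF libraries in red and the number of tested genes in brackets. The specific granule and identity lists lie lowest and the Kupffer cell and macrophage list highest, while the azurophil sum, which includes the lysosomal enzymes that rose, is higher with anti-GCF.

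The pathway of the granulocyte colony-stimulating factor receptor did not move in 1 direction. Of 29 genes tested, 9 rose and 6 fell, where 31.6% of all tested genes rose and 26.3% fell. The list had a median of 0.10, close to the 0.11 of all genes. Without isotype replicate 1 or 3, 5 rose, and without anti-GCF replicate 2 or 3, 3 fell. The cytokine gene itself, Csf3, was near the limit of detection, at 0.629, 0.354 and 0.82 CPM with isotype and 0, 0 and 0.0673 CPM with anti-GCF. It had 52 counts in all with isotype and 2 with anti-GCF, a ratio of 0.0327 with an exact 95% interval of 0.00385 to 0.124 for counting error only, and it fell (adjusted p = 0.000451). Stat3 measured 347, 245 and 248 CPM with isotype and 195, 208 and 189 CPM with anti-GCF. The groups did not overlap, but the log2 difference of -0.50 ± 0.21 missed the threshold (adjusted p = 0.0509). It passed under 7 of the alternatives, which include RLE scaling (log2 -0.60, adjusted p = 0.0234) and DESeq2 (adjusted p = 0.0136). Socs3, a STAT3 target that restrains the receptor, was at 85.9, 137 and 164 CPM and 418, 522 and 399 CPM. It rose (log2 1.79 ± 0.57, adjusted p = 0.0186), with no overlap, and lost the call without isotype replicate 1 (adjusted p = 0.0677). Among the kinases, Tyk2 rose (0.95, adjusted p = 0.00015). The largest rise in the list was that of Csf1r (2.84), the macrophage growth factor receptor.

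Over the 20 transcription factors of granulocyte production tested, 6 fell and 7 rose, near the shares of all tested genes. Cebpe stood at 53.5, 87.6 and 69.1 CPM with isotype and 18.4, 25.8 and 11.1 CPM with anti-GCF (log2 -1.93 ± 0.30, adjusted p = 0.000153). Cebpb, the C/EBP factor of emergency granulopoiesis, was at 453, 915 and 659 CPM and 252, 273 and 317 CPM (log2 -1.27 ± 0.21, adjusted p = 0.000206). Every anti-GCF library was below every isotype library in both. Klf5 (-3.05), the progenitor factor Myb (-2.69) and the MYC antagonist Mxd1 (-1.95) fell too. Irf8, which directs progenitors towards monocytes and dendritic cells, went from 55.1, 34.7 and 44.9 CPM to 332, 283 and 349 CPM (log2 2.84 ± 0.30, adjusted p = 7.78e-06).

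Macrophage genes had the highest median rise of the lists examined. All 15 Kupffer cell and macrophage genes were tested and all 15 rose, against 31.6% of all tested genes, with a median log2 fold change of 4.23. Their summed level was 457, 985 and 702 CPM with isotype and 7421, 9305 and 13131 CPM with anti-GCF. The lowest anti-GCF sum was several times the highest isotype sum. Cd5l (chr3:87357881-87371073), a secreted scavenger protein of tissue macrophages, was at 9.09, 48.8 and 32.2 CPM with isotype and 1252, 1638 and 2679.8 CPM with anti-GCF (log2 5.95 ± 1.21, adjusted p = 0.0013). Clec4f (chr6:83644542-83656187), a lectin specific to mouse Kupffer cells, was at 2.05, 31.9 and 25.2 CPM and 697, 808 and 1503 CPM (log2 5.66 with an SE of 1.5, adjusted p = 0.00683). In both genes isotype replicate 1 was the lowest library of all and anti-GCF replicate 3 the highest. The complement receptor Vsig4 (5.83), the haemoglobin scavenger receptor Cd163 (6.0) and Marco (5.33) rose by similar log2 amounts, and Timd4 (4.08) and the pan-macrophage gene Adgre1 (3.23), which encodes F4/80, by less. C1qb, a subunit of complement C1q, rose by 4.20. These genes moved opposite to the neutrophil genes in the same libraries, and their part in the falls given above was not tested.

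Genes outside the list with large rises included Pcolce2 (7.20), the eosinophil-attracting chemokine Ccl24 (6.84), the fatty acid binding protein Fabp7 (5.89) and the terminal complement component C6 (5.80). Each had under 4 CPM in every isotype library and at least 10 CPM in every anti-GCF library. C6, for instance, was at 0.511, 3.59 and 3.62 CPM with isotype and 101, 135 and 202 CPM with anti-GCF.

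Monocyte and dendritic cell genes followed. Of 15 tested, 13 rose and none fell, where 31.6% of all tested genes rose and 26.3% fell. The 15 genes had a median of 2.93 and sums of 246, 299 and 249 CPM with isotype and 2206, 1774 and 1811 CPM with anti-GCF. Ccr2, which brings monocytes out of the marrow, was at 15, 23.4 and 15.9 CPM and 200.2, 209 and 209.6 CPM (log2 3.51 ± 0.24, adjusted p = 7.08e-07). Cx3cr1 (4.07) and Ace (4.73), markers of patrolling monocytes, rose too. Xcr1, the chemokine receptor of cross-presenting dendritic cells, had 1.61, 1.47 and 2.65 CPM with isotype and 35.6, 36.6 and 47.4 CPM with anti-GCF (log2 4.39 ± 0.47, adjusted p = 1.15e-05). Neither Ccr2 nor Xcr1 overlapped between groups, and Clec9a (4.35), another gene of those dendritic cells, rose with Xcr1. Ly6c2, the antigen of classical monocytes, was not called (log2 0.66 ± 0.31, adjusted p = 0.0844), and neither was the plasmacytoid gene Siglech (1.07). Without isotype replicate 2, Ly6c2 was called higher (log2 1.02, adjusted p = 0.0162).

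Antigen presentation genes rose with them. MHC class II genes and their accessory genes rose in 11 of 12 cases, against 31.6% of all tested genes, with a median of 2.5. H2-Ab1 (chr17:34257689-34269419), the beta chain of I-A, was at 388, 339 and 436 CPM with isotype and 2557, 2196 and 2920.1 CPM with anti-GCF (log2 2.72 ± 0.21, adjusted p = 1.38e-06). Ciita, the master activator of the class II genes, was at 11.4, 6.85 and 15.3 CPM and 82.7, 50.7 and 69.5 CPM (log2 2.60 ± 0.30, adjusted p = 1.52e-05). The groups were wide apart in both, and Cd74, the invariant chain, rose alike (log2 2.49 ± 0.19, adjusted p = 1.29e-06). The costimulatory ligands divided, with Cd86 rising (1.64) and Cd80 falling (-1.66). MHC class I genes rose in 11 of 18 cases with none falling, and a median of 1.00, where 31.6% of all tested genes rose and 26.3% fell.

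The promoters of H2-Aa and H2-Eb1 are shown because their genes rose together with Ciita. They are the 250 bases before the start site in RefSeq (GRCm38.p6), with capitals marking CCAAT, the core of the Y box of class II promoters, on either strand. It is in 33.8% of all promoters of this length, counted by promoter. Counted by gene, with a match in any promoter enough, it is in 6 of the 7 genes of the class II list that have an entry.
H2-Aa, chr17:34287824-34288073, minus strand: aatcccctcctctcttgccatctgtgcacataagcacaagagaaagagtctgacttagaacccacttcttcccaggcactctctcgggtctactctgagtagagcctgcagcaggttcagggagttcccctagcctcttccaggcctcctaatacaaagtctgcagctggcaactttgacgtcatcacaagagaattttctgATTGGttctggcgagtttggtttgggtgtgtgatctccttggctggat
H2-Eb1, chr17:34305617-34305866, plus strand: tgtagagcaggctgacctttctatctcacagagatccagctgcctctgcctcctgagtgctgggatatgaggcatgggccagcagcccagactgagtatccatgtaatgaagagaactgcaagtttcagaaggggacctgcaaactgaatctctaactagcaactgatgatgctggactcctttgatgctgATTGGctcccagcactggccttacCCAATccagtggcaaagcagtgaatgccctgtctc
H2-Aa held 1 match and H2-Eb1 2. The genes themselves rose by 2.59 ± 0.22 and 2.75 ± 0.21 on the log2 scale.

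B cell and plasma cell genes rose less and less evenly. Of 15 tested, 9 rose and none fell, where 31.6% of all tested genes rose and 26.3% fell. The 15 genes had a median of 1.34 and sums of 4850.1, 5327 and 4935 CPM with isotype and 10880, 19967 and 8961 CPM with anti-GCF. Ighm, the IgM heavy chain, was at 1515, 1989.6 and 1764 CPM and 4089, 7796 and 3199 CPM (log2 1.52 ± 0.29, adjusted p = 0.000654). Igkc, the kappa light chain constant region, was at 2238, 2500.2 and 2045 CPM and 3944, 9256 and 3946 CPM (log2 1.34 ± 0.39, adjusted p = 0.0101). Anti-GCF replicate 2 was the highest library for both, and without it the Igkc call was lost (adjusted p = 0.0717). Without anti-GCF replicate 1, 5 of the 15 genes rose, near the share of all tested genes in the fit of all libraries.

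Endothelial genes were less clear. Of 12 tested, 3 rose and none fell, where 31.6% of all tested genes rose and 26.3% fell. Cdh5, the adhesion molecule of endothelial junctions, was at 1.02, 22.2 and 10 CPM with isotype and 78.5, 95.1 and 146 CPM with anti-GCF (log2 3.25 ± 0.89, adjusted p = 0.00797). Stab2, a scavenger receptor of liver sinusoidal endothelium, was at 1.42, 37.9 and 19.3 CPM and 38.5, 51.8 and 68.9 CPM, higher in each anti-GCF library but not called (log2 1.44 ± 0.91, adjusted p = 0.196). Isotype replicate 1 was the lowest library for both.

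Of 15 genes of eosinophils, basophils and mast cells tested, 5 rose, 3 fell and 7 were not called, with a median of -0.19. Over all tested genes, 31.6% rose and 26.3% fell. Uncalled members were markers of eosinophils, basophils and mast cells alike. Ccr3, the eotaxin receptor of eosinophils, was at 1.06, 3.77 and 3.5 CPM with isotype and 67.3, 87.6 and 129 CPM with anti-GCF (log2 5.07 ± 0.87, adjusted p = 0.000425), and the eosinophil ribonuclease Ear1 rose too (3.21). The basophil protease Prss34 was at 14.5, 10.8 and 10.7 CPM and 3.86, 1.63 and 1.31 CPM and fell (log2 -2.39 ± 0.37, adjusted p = 0.00012).

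For the counts that follow, 31.6% of all tested genes rose and 26.3% fell. T cell genes rose in none and fell in 2 of 16 cases. One of these was Cd3d, a T cell receptor complex subunit, at 188, 267 and 275 CPM with isotype and 47.4, 50.9 and 37.2 CPM with anti-GCF (log2 -2.43 ± 0.27, adjusted p = 1.06e-05), and its partner Cd3e was not called (log2 0.46 ± 0.28, adjusted p = 0.169). NK and cytotoxic genes rose in 5 and fell in 3 of 15 cases, or 1 without isotype replicate 3. Erythroid genes fell in 5 and rose in 2 of 11 cases, and 2 fell with a filter of 5 CPM in 2 libraries. Those that rose were Hba-a2 and Epor, and the haemoglobin genes Hba-a1, Hbb-bs and Hbb-bt were not called. The erythroid list summed to 261, 1114 and 2108 CPM with isotype and 923, 1988 and 613 CPM with anti-GCF, with overlap. The red cell anion exchanger Slc4a1 was at 30.6, 62.1 and 45.6 CPM with isotype and 0.748, 1.54 and 0.673 CPM with anti-GCF (log2 -5.53 ± 0.72, adjusted p = 6.1e-05). Hepatocyte genes rose in 3 of 22 cases and none fell, and Alb, albumin, was at 48.3, 52.9 and 184 CPM and 199, 156 and 211 CPM without a call (adjusted p = 0.119). It was called higher with the replicate block in the fit of all libraries (log2 1.28, adjusted p = 0.0148) and of only the groups compared (adjusted p = 0.0319), and without isotype replicate 3 (log2 1.90, adjusted p = 0.00263). The count of rising hepatocyte genes ranged from 1 to 13 over the alternatives, with 13 without isotype replicate 3, which was the isotype library with the most Alb, and 10 and 9 with the replicate block in these 2 fits. Their median log2 fold change was 0.93, and their summed level was 129, 174 and 443 CPM with isotype and 471, 502 and 541 CPM with anti-GCF, without overlap. Bile duct (cholangiocyte) genes rose in 2 of 10 cases and none fell, with a median of 0.88. They summed to 130, 94.6 and 67.5 CPM with isotype and 173, 335 and 372 CPM with anti-GCF, and every anti-GCF library was higher.

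Il1b, interleukin-1 beta, was at 942, 1002 and 1249 CPM with isotype and 2862, 3363 and 3552 CPM with anti-GCF (log2 1.61 ± 0.45, adjusted p = 0.00787). It rose with no overlap between groups, while Tnf, which encodes another early cytokine, was not called (0.47, adjusted p = 0.146). Of 24 cytokine and inflammasome genes, 7 rose and 6 fell, shares near the 31.6% and 26.3% of all tested genes, and among those that fell was the inflammasome sensor Nlrp3 (-1.11). Chemokines rose in 7 and fell in 2 of 16 cases. Those that fell were the neutrophil attractants Cxcl2, at 2364, 3963 and 7371 CPM with isotype and 1155, 1757 and 1830.4 CPM with anti-GCF (log2 -1.53 ± 0.36, adjusted p = 0.0026), and Cxcl3 (-3.04). Cxcl9, which attracts T cells, went from 1.38, 4.48 and 3.58 CPM to 41.5, 25.8 and 76.5 CPM and rose (log2 3.91 ± 0.56, adjusted p = 0.00011). Genes induced by interferon-gamma rose in 14 and fell in 1 of 20 cases, with a median of 1.41. The type I interferon genes rose in 9 and fell in 6 of 36, both below the shares of all tested genes. In the fit of only the groups compared, with or without the replicate block, 14 of the type I interferon genes rose. The number falling among them was 2 without anti-GCF replicate 1 or 2, and 3 without anti-GCF replicate 3 or isotype replicate 2 or 3. Genes of NF-kB feedback fell in 5 and rose in 2 of 20 cases, a falling share near that of all tested genes. The RNA-degrading regulator Zc3h12a (-2.07) and the subunit Rel (-1.62) were among those that fell.

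Of 25 immediate early genes tested, 12 rose and 7 fell, and 7 rose without isotype replicate 1, where 31.6% of all tested genes rose and 26.3% fell in the fit of all libraries. Fos was at 547, 1071 and 1746 CPM with isotype and 7563, 5157 and 5886 CPM with anti-GCF and rose (log2 2.47 ± 0.44, adjusted p = 0.000368). Fosl1 was at 237, 363 and 320.5 CPM with isotype and 7.96, 12.5 and 7.14 CPM with anti-GCF, a 33.4-fold fall (log2 -5.06 ± 0.41, adjusted p = 2.19e-06). These relatives both partner with Jun proteins, and every anti-GCF library lay above the isotype libraries for Fos and below them for Fosl1. Jun (1.56), the MAP kinase phosphatase Dusp1 (2.01) and the RNA-destabilising Zfp36 (1.60) rose with Fos, and Fosl2 (-2.55) and the nuclear receptor Nr4a3 (-3.07) fell with Fosl1.

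Of 21 immunoregulatory genes, 6 rose and 7 fell, again near the shares of all tested genes. Arg1, an arginine-degrading enzyme linked to suppressive myeloid cells, was at 5.55, 31.5 and 8.42 CPM with isotype and 37.8, 284 and 99.3 CPM with anti-GCF. It rose (log2 3.20 ± 1.14, adjusted p = 0.0304), with replicate 2 the highest in each group, and the call was lost without anti-GCF replicate 2 (adjusted p = 0.122), isotype replicate 1 (0.094) or isotype replicate 3 (0.0922). Il10 was at 3.42, 4.65 and 4.73 CPM and 2.92, 15 and 10.8 CPM, with overlap, and was not called (adjusted p = 0.115), though it was called higher without anti-GCF replicate 1 (log2 1.60, adjusted p = 0.0207). Cd274, which encodes PD-L1, was at 144, 122 and 119 CPM and 90.2, 80.5 and 106 CPM, lower in each anti-GCF library but not called (log2 -0.48 ± 0.34, adjusted p = 0.245). It was called lower in the fit of only the groups compared (log2 -0.57, adjusted p = 0.0114), and in that fit with the replicate block (adjusted p = 0.0135). Nt5e, the ectonucleotidase CD73, fell from 242, 120.3 and 113 CPM to 16.3, 23.4 and 13.8 CPM (log2 -3.15 ± 0.41, adjusted p = 5.03e-05).

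Thbs1, the matrix glycoprotein thrombospondin-1, had one of the largest falls. It was at 4704, 4168 and 3075 CPM with isotype and 27.5, 119.7 and 51.9 CPM with anti-GCF, 60-fold lower (log2 -5.91 ± 0.77, adjusted p = 6.03e-05). The ferritin heavy chain Fth1 fell from 7976, 7275 and 7550.4 CPM to 2105, 2619 and 3046 CPM (log2 -1.55 ± 0.21, adjusted p = 4.18e-05). Both stood apart in every library. Cdadc1, a cytidine deaminase-like gene, was at 426, 349.5 and 354 CPM and 16.3, 22.3 and 19.1 CPM and fell by 4.29 on the log2 scale (adjusted p = 6.83e-05).

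Receptors that guide or arm neutrophils held both falling and rising genes. Of 21 chemotaxis and adhesion genes tested, 10 fell and 5 rose, and of 28 pattern recognition, Fc and lectin receptor genes 11 fell and 9 rose. Over all tested genes, 26.3% fell and 31.6% rose, and the rising share of the second list was near that. Ltb4r1, the receptor for leukotriene B4, was at 207, 267 and 185 CPM with isotype and 51.7, 55.4 and 34.2 CPM with anti-GCF (log2 -2.22 ± 0.30, adjusted p = 4.55e-05). C5ar1, the receptor for complement C5a, was at 1089, 1481 and 1087 CPM and 402, 411 and 437 CPM (log2 -1.55 ± 0.19, adjusted p = 2.3e-05). Both fell with no overlap, as did the formyl peptide receptor Fpr2 (-1.71), the lipopolysaccharide co-receptor Cd14 (-2.27) and the Toll-like receptor kinase Irak2 (-2.04). Those that rose included C3ar1 (3.15), the receptor for complement C3a, the high-affinity IgG receptor Fcgr1 (4.07) and the RNA sensor Tlr7 (1.72).

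The enzymes of lipid mediators divided. Of 13 eicosanoid genes tested, 4 fell and 9 rose, and 5 rose without isotype replicate 1. Over all tested genes, 26.3% fell and 31.6% rose in the fit of all libraries. Alox5, the lipoxygenase that starts leukotriene synthesis, was at 409.7, 406 and 333 CPM with isotype and 105, 126 and 96.2 CPM with anti-GCF (log2 -1.81 ± 0.21, adjusted p = 1.54e-05). Lta4h, which makes leukotriene B4, was at 325, 449.9 and 339 CPM and 83.8, 108 and 69.8 CPM (log2 -2.09 ± 0.30, adjusted p = 7.39e-05). Both fell, and every anti-GCF library was below every isotype library. Hpgds, the haematopoietic prostaglandin D synthase, rose from 2.09, 2.98 and 4.81 CPM to 13.9, 15.2 and 27.3 CPM (log2 2.51 ± 0.44, adjusted p = 0.00034), and the cyclooxygenase Ptgs1 rose too (1.18), while the prostaglandin E synthase Ptges fell (-1.67).

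Effector and metabolic genes had smaller median falls than the granule genes. Their counts are set beside 26.3% of all tested genes falling and 31.6% rising. All 7 genes listed for the NADPH oxidase, which makes superoxide, were tested and fell, a list that holds its subunits and the proton channel Hvcn1, with a median of -1.18. Ncf1, the p47phox organiser, was at 1366, 1618 and 1274 CPM with isotype and 428, 549 and 366 CPM with anti-GCF (log2 -1.67 ± 0.24, adjusted p = 6.89e-05). Cybb, the catalytic subunit, was at 2138, 3381 and 2495 CPM and 1318, 1272 and 1066 CPM (log2 -1.13 ± 0.36, adjusted p = 0.0157), and its call was lost without isotype replicate 2 (adjusted p = 0.0618) or anti-GCF replicate 3 (0.0576). The Hvcn1 call was also lost without anti-GCF replicate 3 (adjusted p = 0.0506). Relative to the identity genes in the same library, the sum of this list was higher with anti-GCF, with log2 ratios of -2.75, -2.90 and -2.73 against -4.11, -3.90 and -4.23 with isotype. The identity sum itself fell with anti-GCF, and the part of other cell types in this ratio was not tested. Glycolysis and hypoxia genes fell in 21 and rose in 2 of 27 cases, with a median of -1.08. The glucose transporter Slc2a3 was at 1869.7, 1966 and 1738 CPM and 486, 512 and 478 CPM (log2 -1.92 ± 0.19, adjusted p = 4.58e-06). Antioxidant genes divided, with the cystine transporter Slc7a11 (-2.89) falling and the peroxiredoxin Prdx1 (2.77) rising.

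Iron and haem genes rose in 6 and fell in 5 of 15 cases, where 31.6% of all tested genes rose and 26.3% fell. Slc40a1, the iron exporter ferroportin, was at 164, 205 and 187 CPM with isotype and 895, 952 and 1453 CPM with anti-GCF and rose (log2 2.57 ± 0.42, adjusted p = 0.000229). The transferrin receptor Tfrc, which imports iron, was at 74, 70.8 and 97.1 CPM and 26.6, 39.7 and 31.5 CPM and fell (log2 -1.31 ± 0.27, adjusted p = 0.0012). Of 24 survival and apoptosis genes, 7 rose and 9 fell, where 31.6% and 26.3% of all tested genes did. The survival factor Bcl2 rose (1.39) and its relative Bcl2l1, which encodes BCL-XL, fell (-1.43), while the stress gene Gadd45a had the largest fall of that list (-2.49).

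Cell cycle genes fell in 26 of 35 cases and rose in none, with a median of -0.84. For this list and those below, 31.6% of all tested genes rose and 26.3% fell, with a median of 0.11. Mki67, the proliferation antigen Ki-67, was at 164, 180.2 and 130.3 CPM with isotype and 47.2, 58.4 and 52.7 CPM with anti-GCF (log2 -1.58 ± 0.24, adjusted p = 8.65e-05). Cdk2, the kinase of the start of DNA replication, fell as well (-1.64). No value overlapped for either. The summed cell cycle level relative to the identity genes was nevertheless higher with anti-GCF, with log2 ratios of -5.82, -5.87 and -5.55 against -7.21, -7.28 and -7.51 with isotype. Here too the identity sum fell, and the part of other cell types was not tested. Cytosolic ribosomal protein genes, whose reads can be shared with pseudogene copies, rose in 42 and fell in 11 of 77 cases, with a median of 0.74, and 17 fell without isotype replicate 2. Nuclear genes of oxidative phosphorylation rose in 30 and fell in 5 of 63 cases, with a median of 0.28, and 9 fell with upper-quartile scaling. When a log2 change of at least 1 was also asked, 4 of the 63 rose and 2 fell. By that measure 21.9% of all tested genes rose and 17.8% fell. All 7 tested mitochondrially encoded genes rose, and 4 rose without anti-GCF replicate 1 or without isotype replicate 1 or 2.

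The same differences were then read against the other antibodies of the table, which were anti-IL10, anti-IL35 and anti-TGFb with 2 libraries each and anti-IL21R with 3, all given with the same nanoparticle course. In the contrast of anti-GCF with the mean of these 4 groups, in which the isotype libraries enter the fit but not the means compared, 5479 genes rose (32.6%) and 4587 fell (27.3%), 59.9% in all. Both contrasts share the anti-GCF libraries, so their values are set side by side only. Neutrophil identity genes had a median of -1.69 against the other antibodies and -1.96 against isotype. Specific granule genes had -2.04 and -2.96, and Kupffer cell and macrophage genes 4.15 and 4.23. Interferon-gamma genes had a median of -0.13 against the other antibodies, where 5 rose and 2 fell, in place of the 1.41 against isotype. Endothelial genes had a median of 2.51, with 11 of 12 rising, in place of 0.08 against isotype. T cell genes had a median of -0.94, with 9 of 16 falling, and NK and cytotoxic genes -1.33, with 12 of 15 falling, in place of 0.17 and 0.60 against isotype. Il1b was not called against the other antibodies (log2 0.55 ± 0.35, adjusted p = 0.186), and neither was Socs3 (log2 0.94 ± 0.43, adjusted p = 0.0803). Stat3 was called lower (log2 -0.58 ± 0.18, adjusted p = 0.0114), and so was Cd274 (log2 -1.07 ± 0.30, adjusted p = 0.00738).

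The summed identity level in the other 9 antibody libraries ran from 45493 to 184140 CPM, above each anti-GCF library. The lowest of them were anti-IL10 replicate 1 and the anti-TGFb libraries. The macrophage sum in those 9 libraries ran from 376 to 3743 CPM, below each anti-GCF library, with anti-IL35 replicate 2 the highest.

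**Figure D4:**
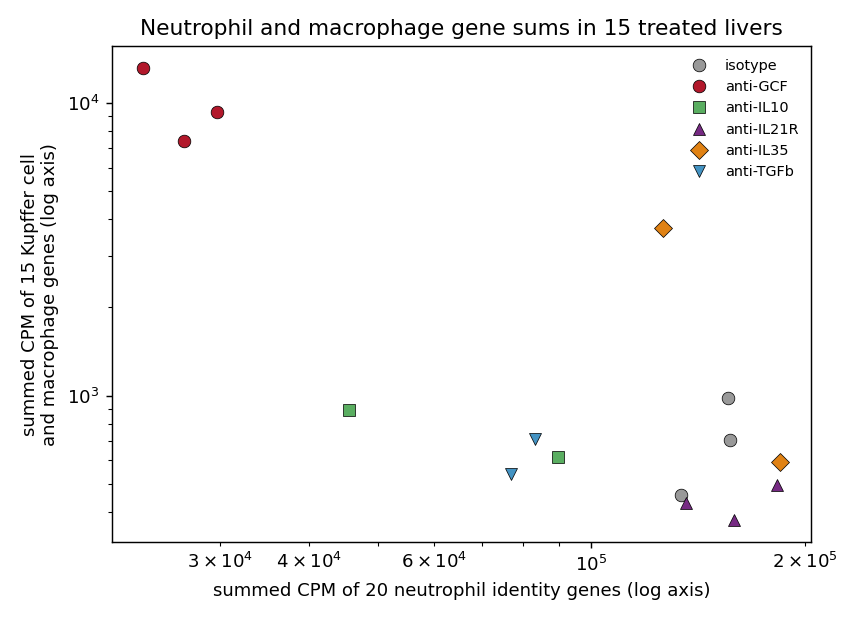
Each point is 1 of the 15 libraries of treated livers, with the summed CPM of 20 neutrophil identity genes on the x axis and of 15 Kupffer cell and macrophage genes on the y axis (both log axes). The 3 anti-GCF libraries (red) are the lowest on the x axis, at 23364 to 29712 CPM, and the highest on the y axis, at 7421 to 13131 CPM.

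The anti-GCF difference was last set beside the difference between treated and untreated liver in the other table of the series, which shares no library with this one. There, 2 libraries of liver neutrophils from treated mice were compared with 2 from untreated mice, over 13961 genes tested in both tables. Of these genes, 30.5% were higher and 36.7% lower with treatment. The library numbers of the treated and untreated livers lie in separate runs, so any step that followed them cannot be told apart from the treatment. Of the 3695 genes that fell with anti-GCF, 2323 were higher with treatment (62.9%) and 375 lower, with a median treatment log2 fold change of 1.24. They made up 54.5% of the genes higher with treatment. Of the 4770 genes that rose with anti-GCF, 435 were higher with treatment (9.12%) and 2781 lower (58.3%), with a median of -1.43. They made up 54.3% of the genes lower with treatment. Most genes that were lower with anti-GCF were thus higher in treated than in untreated liver, and most that were higher with anti-GCF were lower. The neutrophil identity genes summed to 168720 and 172420 CPM in the treated livers of that table and to 34330 and 35948 CPM in the untreated ones. The part of this difference in the counts was not tested.

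By list, 18 of 19 specific granule genes (median 3.25), 17 of 20 identity genes (median 1.90) and 32 of 35 cell cycle genes (median 3.07) were higher with treatment. Most members of these lists fell with anti-GCF. Lower with treatment were 4 of 15 Kupffer cell and macrophage genes (median -0.93) and 5 of 12 MHC class II genes (median -1.54), with none higher. Of all genes, 36.7% were lower with treatment, so the macrophage share was below that of all genes and the class II share near it. In some lists more genes were higher than lower in both comparisons, where 30.5% of all genes were higher with treatment. Immediate early genes, of which 12 of 25 rose and 7 fell with anti-GCF, were higher with treatment in 15 cases and lower in 2 (median 1.66). Eicosanoid genes, of which 9 of 13 rose and 4 fell, were higher in 8 and lower in 3 of 12 (median 1.47). Without isotype replicate 1, 7 immediate early and 5 eicosanoid genes rose with anti-GCF. Whether the same members moved alike in both comparisons was not tested. The untreated livers differed in other cell types as well: all 22 hepatocyte genes were lower with treatment, with a median of -6.96, and 8 of 10 erythroid genes were higher, with a median of 6.94. The part of these in the counts was not tested.

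**Figure D5:**
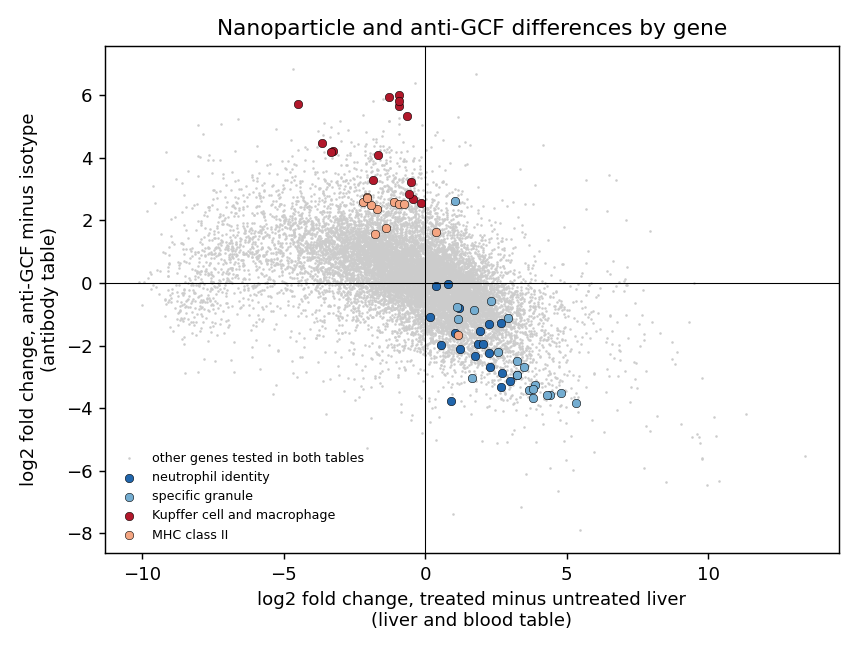
Each point is 1 of 13961 genes tested in both tables, with its log2 fold change of treated over untreated liver on the x axis and of anti-GCF over isotype on the y axis. Neutrophil identity and specific granule genes (blue) lie mostly at the lower right, and Kupffer cell, macrophage and class II genes (red and orange) mostly at the upper left.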

How the data were processed

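RNA from liver neutrophils was sequenced as stranded mRNA libraries, per the labels' protocols. The authors deposited a table of raw counts per gene for the antibody groups, and a table of estimated counts, 44.4% of them not whole numbers, for liver and blood, which were rounded to whole numbers here. The submitters' processing notes name STAR 2.5.3a, Bowtie2 2.2.5, Partek, DESeq2 and mm10, with no role for each; how strand was counted is not given in the sources used here.

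All 15 antibody libraries entered 1 edgeR 4.0.16 fit (R 4.3.3, limma 3.58.1) with group as the only term, TMM scaling, the filterByExpr filter, the robust quasi-likelihood F test, and Benjamini-Hochberg adjustment over 16812 genes at 0.05. CPM uses TMM-scaled library sizes. The SE is the absolute log2 fold change divided by the square root of the F statistic. Depth was 23.6 to 47.5 M counts, and intervals cover counting error only. The script was tested on simulated data. The alternatives were RLE and upper-quartile scaling, DESeq2 1.42.0, limma-voom, other filters, a replicate block, a fit of only the groups compared, a fold threshold, and leaving out each replicate.

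Named genes were, per direction, the 15 with the largest change among called genes with at least 10 CPM and no overlap, the 10 most abundant, up to 4 per list with the smallest adjusted p, and a fixed set. Other list members named for a role, such as Cd3e and Tnf, were chosen after their values were seen. The comparison, the gene lists and the rule were chosen with earlier results of these data known. Gene positions are from GENCODE M21 (GRCm38, the assembly of mm10), and 22261 of 22505 symbols matched it. None of the 19 listed histone symbols matched the table. No lists were tested as sets. A few named genes are not reported here.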

Additional observations from a re-analysis of the deposited data

How the results depend on the processing

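The number of genes called against isotype stayed within 1.5 times of 9723 under every alternative run, from 6688 when a fold change of 1 or more on the log2 scale was also asked to 9857 with limma-voom, and from 8519 to 8928 with 1 replicate left out. Against the other 4 antibodies, requiring that fold change left 3074 higher and 2774 lower, 5848 in all. Genes lower with both anti-GCF and treatment numbered 375, and 234 to 308 with 1 liver library left out, the lowest without untreated liver replicate 2. Of 2044 values for 128 named genes under alternatives, 2005 kept direction and call, 23 lost a call, 14 gained one, and 2 changed sign, both without isotype replicate 2. With 1 replicate left out, Csf3r ranged from -0.26 to 0.029 and Cxcr2 from -0.17 to 0.093. The cause was not tested. The median log2 fold change over all genes shifted by -0.13 with upper-quartile scaling and -0.09 with RLE, and the share of calls that were higher from 54.6% to 48.6% and 50.3%.

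Same-numbered libraries of the groups had deviations correlated at 0.20, 0.22 and 0.04, and differently numbered ones at -0.24 to 0.02. The same-numbered values were thus the highest, but a pairing was set to need each of them over 0.1. The replicate numbers were therefore not taken to pair the libraries, and a pairing is not excluded. With the replicate block, 9377 genes were called in the fit of all libraries and 9232 in the fit of only the groups compared.

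With 3 libraries a group and 23.6 M counts or more in each, genes at a few counts, such as Csf3, rest on very few molecules.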

Other observations

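Some genes that fell or rose most belong to none of the lists. The hair keratin genes Krt81 and Krt83 fell together: Krt81 was at 40.6, 77.8 and 63 CPM with isotype and 0.193, 0.379 and 0.168 CPM with anti-GCF (log2 -7.90 ± 1.00, adjusted p = 4.67e-05), and Krt83 at 105, 173 and 137 CPM and 3.21, 6.34 and 2.49 CPM (log2 -5.10 ± 0.63, adjusted p = 4.32e-05). All 3 anti-GCF libraries were far below the isotype libraries for both genes.

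Genes of pancreatic digestive enzymes were seen in the anti-GCF libraries. Ctrb1, a chymotrypsinogen, was at 29.7, 1.16 and 10.9 CPM with anti-GCF and had 1 count in all with isotype, and Pnliprp1, a lipase-related protein, was at 28.7, 0.352 and 5.45 CPM with 1 isotype count. Replicate 1 was the highest and replicate 2 the lowest for both, so the level differed widely within the group. Ctrb1 reached 12.7 CPM in the other antibody libraries.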
